A study of Mus musculus with 9 samples.

Results

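The PYHIN genes other than Aim2 that respond to interferon were followed through splenic monocytes of mice whose gut bacteria had been reduced by an antibiotic. The members were the 6 genes Ifi203, Ifi204, Ifi205, Mnda, Mndal and Pyhin1, picked by gene symbol from deposited tables of 46072 genes, and each symbol occurred in 1 row. All 6 were detected in every library and all 6 passed the filtering of each test, so no member was lost. Groups of 3 female C57BL/6 mice were compared. Con mice received water by gavage for 6 days, Van mice received vancomycin at 2 mg per mouse per day for the same 6 days, and VanLip mice received the same vancomycin and then L654 by retro-orbital injection on days 7, 9 and 11. L654 is a lipid of gut Bacteroidota and a ligand of TLR2. Gavage was followed by an antibiotic-free rest, of 6 to 8 days per the labels and of 8 days in every group for these RNA samples per the study, and the injections fell within it. Per its methods the mice were 8 to 10 weeks old, and monocytes were obtained by negative selection and lysed without stimulation. There was no group given L654 without vancomycin. The study gave PBS injections to control mice of its L654 experiments, but its account of the sequencing does not state them for Con and Van. If they were not given, injection and lipid cannot be told apart. Whether spleens were combined for these libraries, as they were for the monocyte cultures, is not given in the sources used here.

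PYHIN proteins pair a pyrin domain, which binds other pyrin-domain proteins, with HIN domains that bind double-stranded DNA. Aim2, the best known of them, assembles an inflammasome with Pycard and Casp1 when DNA reaches the cytosol. In mice the family is a tandem cluster of related genes whose transcription is raised by type I and type II interferon in macrophages and monocytes. Ifi204 is the member most often compared with human IFI16, which senses DNA upstream of the adaptor STING. Mnda is the mouse gene named after the human myeloid cell nuclear differentiation antigen, and Mndal is its close relative.

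The members lay within 400894 bases of chromosome 1 (GRCm38, GENCODE M21 gene models), 5 on the minus strand and 1 on the plus strand. Pyhin1 (ENSMUSG00000043263, Ifi209 in GENCODE) spanned chr1:173630917-173647928 on the plus strand. Ifi204 (ENSMUSG00000073489) spanned chr1:173747293-173766943, Mndal (ENSMUSG00000090272) chr1:173849126-173942491 and Mnda (ENSMUSG00000026536, Ifi211 in GENCODE) chr1:173896345-173913046, all on the minus strand. Ifi203 (ENSMUSG00000039997) spanned chr1:173920407-173942672 and Ifi205 (ENSMUSG00000054203) chr1:174011998-174031810, also on the minus strand. The gene model of Mndal ran across the whole of Mnda and shared 22085 bases of its span with Ifi203 on the same strand. Its exons overlapped those of Ifi203 by 37 bases and those of Mnda by 0 bases, because 1 Mndal transcript began at the first exon of Ifi203.

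Near-copies within the cluster can exchange reads, so the share of each member's transcripts that occurs letter for letter in another gene was counted over stretches of 100 bases. Mnda was the least distinct, with 56.9% of its stretches found elsewhere, mostly in Ifi205 (37.2%) and Ifi204 (19.6%). Pyhin1 had 16.9% of its stretches in common with BC094916 (Ifi214). The share was 15.04% for Ifi205, 10.7% for Ifi204, 6.38% for Mndal and 2.84% for Ifi203. By this measure Mnda was the member most open to an exchange of reads and Ifi203 the least.

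The starts of the genes are shown as a description of the cluster, and no link between their sequence and the levels was tested. RefSeq (GRCm38.p6) promoter windows of 300 bases, 250 before and 50 after a start, were found for 5 of the 6 members, 7 windows in all. They were searched on both strands for the core of the interferon-stimulated response element, spelled GAAA, then any 2 bases, then GAAA. The core was present in 5 of the 7 windows, and in 3.44% of 32851 promoter windows of the genome. Mndal, Mnda, Ifi203 and Ifi205 each had it in at least 1 window, and Pyhin1 did not. The gamma-activated site, spelled TTC, then any 3 bases, then GAA, was in 0 of the 7 windows and in 8.3% of all windows. The 80-base stretches around the core are given below 5′ to 3′ on the strand of the gene, with the core in capitals. They lie at chr1:173942498-173942577 for Ifi203, chr1:173913054-173913133 for Mnda and chr1:174031860-174031939 for Ifi205, all on the minus strand, with Pyhin1 at chr1:173630772-173630851 on the plus strand for comparison.
Ifi203: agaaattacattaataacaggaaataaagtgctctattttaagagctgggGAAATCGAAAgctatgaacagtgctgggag
Mnda: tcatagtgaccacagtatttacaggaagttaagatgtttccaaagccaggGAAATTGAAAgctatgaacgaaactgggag
Ifi205: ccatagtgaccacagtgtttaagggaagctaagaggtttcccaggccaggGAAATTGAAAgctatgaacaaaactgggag
Pyhin1: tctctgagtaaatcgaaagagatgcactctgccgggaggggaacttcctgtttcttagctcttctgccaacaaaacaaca
The core began 35 bases before the start in Ifi203, 37 in Mnda and 134 in Ifi205. On the opposite strand, Ifi205 held a further core 23 to 32 bases after the start, and the other Mndal window held 1 from 54 to 45 bases before its start. The corresponding stretch of Mndal, 36 bases before its start, was identical to that of Ifi203 at 80 of 80 bases. In the GENCODE models that Mndal stretch lay in an exon of Mndal itself. The Ifi203 stretch lay inside the span of the Ifi203 model, in no exon of the family, and the other Ifi203 window, further upstream, held no core. Mnda and Ifi205 were identical at 71 of 80 bases, whereas Mnda and Ifi203 were identical at 44 of 80. Pyhin1 was identical to the other 4 at 20% to 28.75% of bases, and Ifi204 had no window. These letters are a description and no evidence that a factor binds.

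The VanLip libraries were deeper, with total counts of 170503470 to 184720704 against 43070361 to 61383806 elsewhere. A single read also weighed more in them, 2.00 being the most frequent low count against 1.33 elsewhere. Converted to fragments by that weight, the totals were 42625870 to 46180125 against 16151327 to 23018836. Read size, as inferred from these counts, and depth thus coincided with the VanLip group, and neither can be told apart from the lipid. The study itself gives paired-end reads of 100 base pairs and names no other length for VanLip. Genes of monocytes were high throughout, the summed FPKM of 8 shared monocyte markers being 9544 to 12229, with 0 of the 8 called in any contrast. Markers of lymphocytes were low. B cell markers summed to 10.3 to 12.6 FPKM in Con, 8.67 to 10.6 in Van and 10.4 to 12.8 in VanLip, with 8 of 8 lower in Van against Con (median log2 fold change -0.52) and 0 called in any contrast. NK cell markers summed to 3.60 to 6.69 FPKM, with 6 of 8 lower in Van against Con (median -0.67) and 0 called. T cell markers summed to 8.50 to 18.9 FPKM, with 6 of 8 lower in Van against Con (median -0.32), and Il7r was called lower in VanLip against Con (-0.70). Neutrophil markers summed to 21.6 to 25.0 FPKM in Con, 13.4 to 33.3 in Van and 20.1 to 37.1 in VanLip, with medians of -1.1 in Van and -1.01 in VanLip against Con, where Retnlg (-2.60) and Ngp (-1.94) were called respectively. Of 5 platelet markers 0 were called, with sums of 10.7 to 22.2 FPKM in Con, 9.89 to 12.9 in Van and 4.77 to 12.3 in VanLip, 4 of 5 being lower in Van (median -0.55) and 5 of 5 in VanLip (median -0.68) against Con. Erythroid markers did move, with summed FPKM of 99.8 to 202.9 in Con, 343 to 773 in Van and 279 to 1164 in VanLip, with 5 of 7 called higher in Van than in Con and 7 of 7 in VanLip against Con. Of the 6 conventional dendritic cell markers, 2 were called lower in Van than in Con (Xcr1 and Clec9a), with sums of 46.4 to 62.7 FPKM in Con and 39.8 to 52.0 in Van, and 2 were called lower in VanLip against Con (Xcr1 and Cd209a, sums of 35.0 to 47.8 FPKM), while Clec9a was called higher in VanLip against Van (0.67). Red pulp macrophage markers summed to 1077 to 1341 FPKM in Con, 1321 to 1714 in Van and 1019 to 1437 in VanLip, with 8 of 8 higher in Van against Con, of which Vcam1 was called (0.46), and Vcam1 called lower in VanLip against Van (-0.50). Of the 7 classical monocyte markers, Ccr2 was called in Van against Con (log2 fold change -0.83) and in VanLip against Van (1.04), Ly6c2 was called in VanLip against Van (0.39), Vcan was called in Van against Con (1.54), and the sums were 900.2 to 1152 FPKM in Con, 803 to 1431 FPKM in Van and 1188 to 1894 FPKM in VanLip. Of 8 nonclassical monocyte markers Cx3cr1 was called in VanLip against Van (0.43). Siglech, 1 of 6 plasmacytoid dendritic cell markers, was called in Van against Con (-0.89) and in VanLip against Van (0.85). The part of these cells in the results was not tested, and in bulk RNA fewer cells of a type and less RNA per cell cannot be told apart.

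VanLip replicate 3 stood apart from the other VanLip libraries in interferon-responsive genes. It was the highest VanLip library for 6 of 6 members, for 7 of 7 other detected PYHIN genes and for 33 of 33 genes on a list of well-known interferon-stimulated genes, against 32.5% of the 13506 genes whose mean normalized count reached 50. It was the highest of all 9 libraries for 4 of the 6 members and 21 of the 33 listed genes, against 9.4% of all genes. Its summed plasmacytoid dendritic cell markers were 17.7 FPKM, against 7.98 to 12.4 in the other libraries. Klk1 alone made up 8.98 FPKM of that sum (0.842 and 0.512 FPKM in VanLip replicates 1 and 2), whereas Siglech was at 1.25 FPKM against 1.69 and 1.01 FPKM. Results on VanLip are therefore given with and without this library. It was singled out by the values of these same genes, so leaving it out lowers their VanLip level by construction and can narrow their spread. Calls made without it describe the data and are not independent evidence.

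In Con monocytes the members were expressed at substantial levels. FPKM is scaled to transcript length, so the genes can be ranked by it. Ifi204 was the highest (136 ± 4.0 FPKM, SD, n = 3, rank 432 of 26108 genes) and Mndal the next (128 ± 3.2 FPKM, rank 463). Mnda (82.7 ± 3.4 FPKM), Ifi203 (78.3 ± 4.0 FPKM) and Pyhin1 (76.9 ± 5.6 FPKM) followed. Ifi205 was the lowest (42.4 ± 0.76 FPKM, rank 1552). Ifi204 and Mndal did not overlap over the Con libraries, nor did Mndal and Mnda or Pyhin1 and Ifi205, whereas the ranges of Mnda, Ifi203 and Pyhin1 overlapped and give no order.

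**Figure D1:**
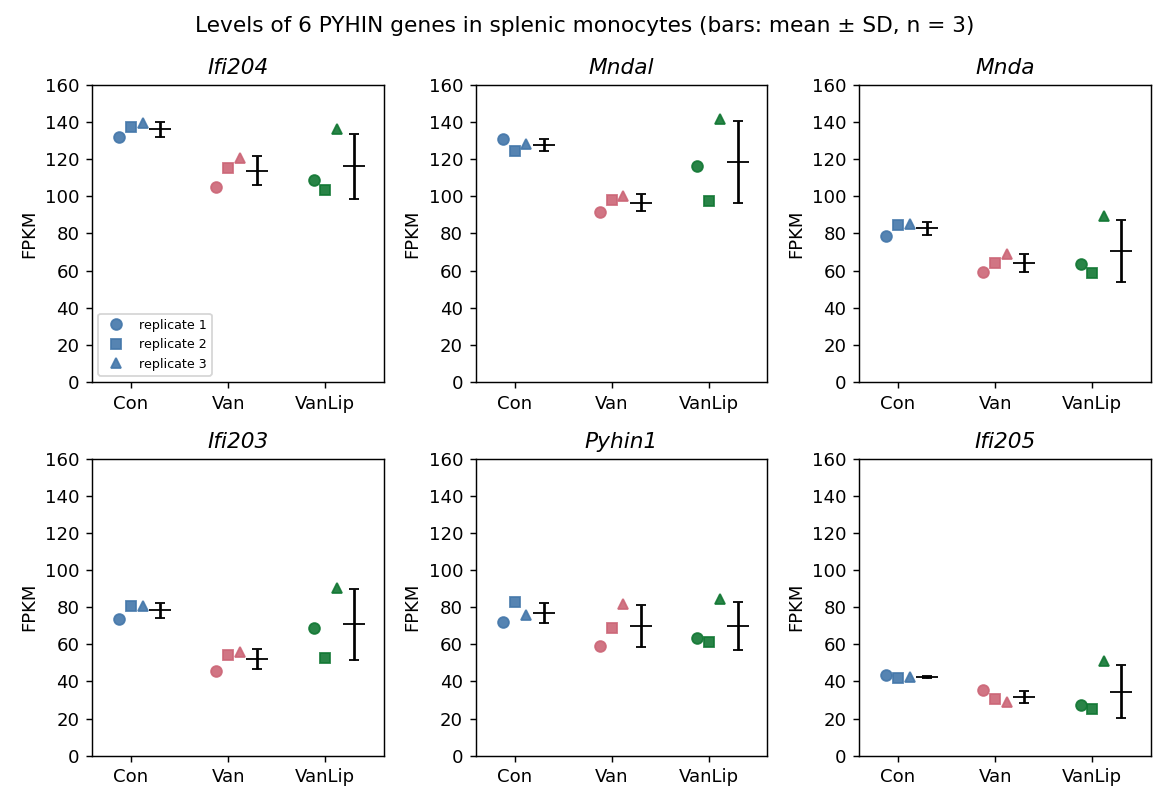
Level of each member in FPKM (vertical axis, the same scale in each panel) in the Con, Van and VanLip libraries, with 1 symbol per library and black bars for the mean ± SD of 3 libraries. In 5 of the 6 panels the Van libraries lie below the Con libraries, Pyhin1 being the exception, and VanLip replicate 3 is the highest VanLip library in all 6.

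The first comparison asked whether vancomycin gavage altered the family. It did for 2 members, of which Ifi203 fell by 34.4% and Mndal fell by 24.1% in Van. The fitted changes of the other members, which did not pass the test, lay between -26.0% and -9.9%. All 6 log2 fold changes were negative, with a median of -0.39 against -0.01 for all genes tested. With the DESeq2 Wald test and Benjamini-Hochberg adjustment over all genes, 2 of 6 members were called, where 4.33% of all genes were. That count depended on the test used, as given below.

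Ifi203, a nuclear member of the family, was at 73.7, 80.7 and 80.4 FPKM in Con replicates 1 to 3 and at 45.9, 54.3 and 56.0 FPKM in Van replicates 1 to 3. Every Van library was below every Con library. Its log2 fold change was -0.61 (SE 0.16, adjusted p = 0.00665 by DESeq2). The call held in 9 of 9 fits that left out 1 library. With edgeR's quasi-likelihood test 0 of 6 members were called, where 1.21% of all genes were, and its adjusted p for Ifi203 was 0.113.

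Mndal, which shares the 80-base stretch above with Ifi203, was at 131, 125 and 128 FPKM in the Con libraries and at 91.3, 97.9 and 100.4 FPKM in the Van libraries. Here too the groups did not overlap. The log2 fold change was -0.40 (SE 0.13, adjusted p = 0.0487 by DESeq2), just inside the threshold, and leaving out any of the Con or Van libraries ended the call, with log2 fold changes of -0.34 to -0.44.

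Ifi204 was at 132, 137 and 139 FPKM in Con and at 105, 115 and 121 FPKM in Van. The groups were separate, with a log2 fold change of -0.28 (SE 0.11, adjusted p = 0.127 by DESeq2). Mnda was at 78.8, 84.3 and 85.1 FPKM in Con and at 59.3, 64.1 and 68.9 FPKM in Van. These were also separate, with a log2 fold change of -0.38 (SE 0.14, adjusted p = 0.109 by DESeq2).

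Ifi205, which has been described as a regulator of the inflammasome adaptor gene Pycard, was at 43.2, 41.8 and 42.1 FPKM in Con and at 35.2, 30.7 and 29.1 FPKM in Van. The Con libraries lay very close together and all Van libraries were lower. The log2 fold change was -0.43 with a wide standard error of 0.29 (adjusted p = 0.540 by DESeq2), since the spread was shared with the VanLip libraries. Pyhin1, whose human counterpart is also called IFIX, was at 71.8, 82.9 and 75.8 FPKM in Con and at 59.3, 68.8 and 81.8 FPKM in Van. It was the member whose groups overlapped, with a log2 fold change of -0.15 (SE 0.14, 95% interval -0.43 to 0.13, adjusted p = 0.747 by DESeq2).

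Thus 5 of 6 members had every Van library below every Con library, a separation seen for 10.3% of all genes. How many passed the test turned on VanLip replicate 3, which enters the shared estimate of the spread. Without it, 5 of 6 members were called lower in Van than in Con, all but Pyhin1, where 6.48% of all genes were called. The same 5 were called when only the Con and Van libraries were fitted, where 9.23% of all genes were. The log2 fold changes without that library equalled those above to 2 decimals.

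Counts exchanged between the members leave their summed count unchanged, while counts exchanged with other genes would still move it. The summed normalized count of the 6 members was 113897, 120592 and 116193 in Con and 84042, 90670.5 and 100043 in Van, a log2 ratio of the group means of -0.35, and -0.30 with the other PYHIN genes added. Every Van library was below every Con library by the sum too, and the members took 0.147% ± 0.005 of the total count in Con and 0.115% ± 0.011 in Van (SD, n = 3). Within the summed FPKM the shares of Ifi203 and Ifi204 differed between Con and Van. Ifi203 made up 13.9% to 14.6% of the members' summed FPKM in Con and 11.6% to 12.6% in Van, while Ifi204 went from 24.8% to 25.3% in Con to 26.4% to 26.7% in Van. Neither pair of ranges overlapped, whereas those of Ifi205, Mnda, Mndal and Pyhin1 did. The mean share of Pyhin1 was 14.1% in Con and 16.3% in Van. These shares were not tested.

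**Figure D2:**
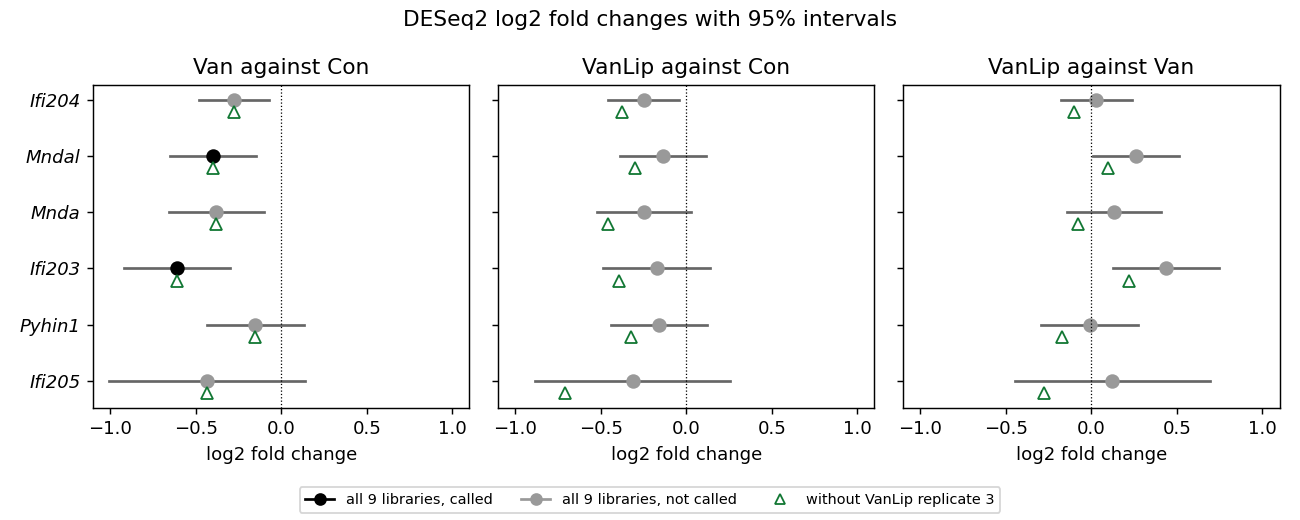
DESeq2 log2 fold change (horizontal axis) of each member in the 3 contrasts, with 95% intervals as lines, black points for called and grey points for uncalled members, and open triangles for the value without VanLip replicate 3. Only Ifi203 and Mndal are black, in Van against Con, and the triangles lie to the left of the points in both VanLip contrasts.

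The second comparison asked whether the family differed from Con after vancomycin followed by L654. With all libraries it could not be shown to. With DESeq2 0 of 6 members were called, where 6.67% of all genes were, and edgeR also called 0, where it called 1.78% of all genes. The unadjusted DESeq2 p was under 0.05 for Ifi204, and the share of all genes at that unadjusted level was not counted. All 6 log2 fold changes were negative, between -0.31 and -0.14, with a median of -0.21 against 0.01 for all genes.

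The VanLip libraries were spread widely. Ifi203 was at 68.7, 52.9 and 90.5 FPKM in VanLip replicates 1 to 3. Mndal was at 116, 97.4 and 142 FPKM and Ifi204 at 109, 103 and 136 FPKM. In each of them replicate 2 was the lowest and replicate 3 the highest, and the range of VanLip covered levels from below the lowest Con library to near or above the highest.

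The same order held in the remaining members. Mnda was at 63.4, 58.5 and 89.5 FPKM, Pyhin1 at 63.4, 61.1 and 84.5 FPKM, and Ifi205 at 27.2, 25.4 and 51.0 FPKM. By the sum, the VanLip libraries were at 95747, 83594 and 125925 normalized counts, a log2 ratio to Con of -0.20, and of -0.38 without replicate 3. For Ifi205, VanLip replicates 1 and 2 were the lowest of all 9 libraries and replicate 3 the highest. Its SD relative to the mean was 41.4% in VanLip, compared with 1.8% in Con and 9.94% in Van.

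Without VanLip replicate 3, 5 of 6 members were called lower in VanLip than in Con, again all but Pyhin1, where 8.15% of all genes were called. The log2 fold changes were then -0.71 for Ifi205 (adjusted p = 4.71e-09 by DESeq2), -0.46 for Mnda (2.49e-05), -0.39 for Ifi203 (0.0261), -0.38 for Ifi204 (9.81e-05) and -0.30 for Mndal (0.0368). Pyhin1 was at -0.32 (adjusted p = 0.109 by DESeq2). These rest on 2 VanLip libraries, and the outcome of the comparison is set by whether VanLip replicate 3 is kept. That library was the highest of VanLip for 6 of 6 members, so the lower levels without it follow in part from the choice.

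The third comparison asked whether levels differed between vancomycin with and without L654. With DESeq2 0 of 6 members were called, where 9.85% of all genes were, and edgeR called 0, where it called 5.07% of all genes. The unadjusted DESeq2 p was under 0.05 for Ifi203 and Mndal, and the share of all genes at that unadjusted level was not counted. Ifi203 had the greatest log2 fold change of the members, 0.43 higher in VanLip (SE 0.16, 95% interval 0.12 to 0.75, adjusted p = 0.0582 by DESeq2). Mndal followed with 0.26 (SE 0.13, adjusted p = 0.218 by DESeq2). Mnda (0.13), Ifi205 (0.12), Ifi204 (0.03) and Pyhin1 (-0.01) were nearer to 0, with a 95% interval for Ifi204 of -0.18 to 0.23 and for Ifi205 of -0.45 to 0.69. No member separated the groups in either direction. Of all genes, 12.8% had every VanLip library below every Van library, and the share with every one above was not counted.

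Ifi203 and Mndal stayed higher in VanLip than in Van without VanLip replicate 3, at 0.22 and 0.10, while Ifi205 (-0.28), Ifi204 (-0.10) and Mnda (-0.078) turned negative. None was called, where 10.3% of all genes were. Without VanLip replicate 2, Ifi203 (0.61) and Mndal (0.39) were called higher, 2 of 6 members where 8.55% of all genes were called. The ratio of Ifi203 to Pyhin1 in FPKM was 1.03, 0.973 and 1.06 in Con, 0.774, 0.789 and 0.684 in Van and 1.08, 0.865 and 1.07 in VanLip. By that ratio within each library, which does not depend on the scaling between libraries, every Van library was below every Con and every VanLip library. The ratio of Ifi203 to Mndal did not separate Van from VanLip, since VanLip replicate 2 (0.543) lay below Van replicates 2 (0.555) and 3 (0.557). These ratios were formed after the values were seen and were not tested.

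A likelihood-ratio test of any difference among the 3 groups called 1 of 6 members, Ifi203 (adjusted p = 0.0072 by DESeq2), where 13.5% of all genes were called. Without VanLip replicate 3 it called 5 of 6, where 15.2% of all genes were called.

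The rest of the family was set beside the members. Of 8 further PYHIN genes in the tables, Ifi202b was listed at 0 in every library and 7 were tested. Aim2 was called lower in Van than in Con (log2 fold change -0.44, SE 0.08, adjusted p = 2.69e-06 by DESeq2) and higher in VanLip than in Van (0.44, SE 0.08, adjusted p = 4.7e-07, and 0.40 without VanLip replicate 3, still called). Unlike the members, Aim2 was close together in the VanLip libraries, at 51.5, 50.7 and 59.7 FPKM against 39.1 to 43.4 FPKM in Van. AI607873 (Ifi207) was not lower in Van, at 69.7 to 78.3 FPKM against 63.6 to 75.7 FPKM in Con, but was called lower in VanLip than in Con (-0.34, adjusted p = 0.0148 by DESeq2) and than in Van (-0.41, adjusted p = 0.000999). Both calls held without VanLip replicate 3 (-0.44 and -0.51).

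Pydc4, Gm4955 and Pydc3 were lowest in VanLip replicates 1 and 2. Pydc4 (Ifi213) was at 44.7 to 48.5 FPKM in Con, 32.7 to 36.6 FPKM in Van and 22.1, 26.0 and 51.8 FPKM in VanLip. Gm4955 (Ifi206) was at 26.7 to 31.5 FPKM in Con, 20.3 to 23.1 FPKM in Van and 12.05, 14.7 and 30.2 FPKM in VanLip. In both, and in the low-level Pydc3 (Ifi208), VanLip replicates 1 and 2 were the lowest of the 9 libraries and replicate 3 was within or above the Con range. None of the 3 was called in any contrast with all libraries. BC094916 (-0.47) and the pseudogene Gm16340 (-0.82), a copy of Ifi203, were called lower in VanLip than in Con (adjusted p = 0.0150 and 0.00301 by DESeq2). Without VanLip replicate 3, 6 of the 7 were called lower in VanLip than in Con, Aim2 being the exception, where 8.15% of all genes were called. In Van against Con 5 of 7 were then called lower (6.48% of all genes called), and in VanLip against Van 4 were called lower and Aim2 higher (10.3%). Pydc3, Pydc4 and Gm4955 were thus called lower in all 3 contrasts without that library, at -0.62, -0.51 and -0.69 in VanLip against Van.

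**Figure D3:**
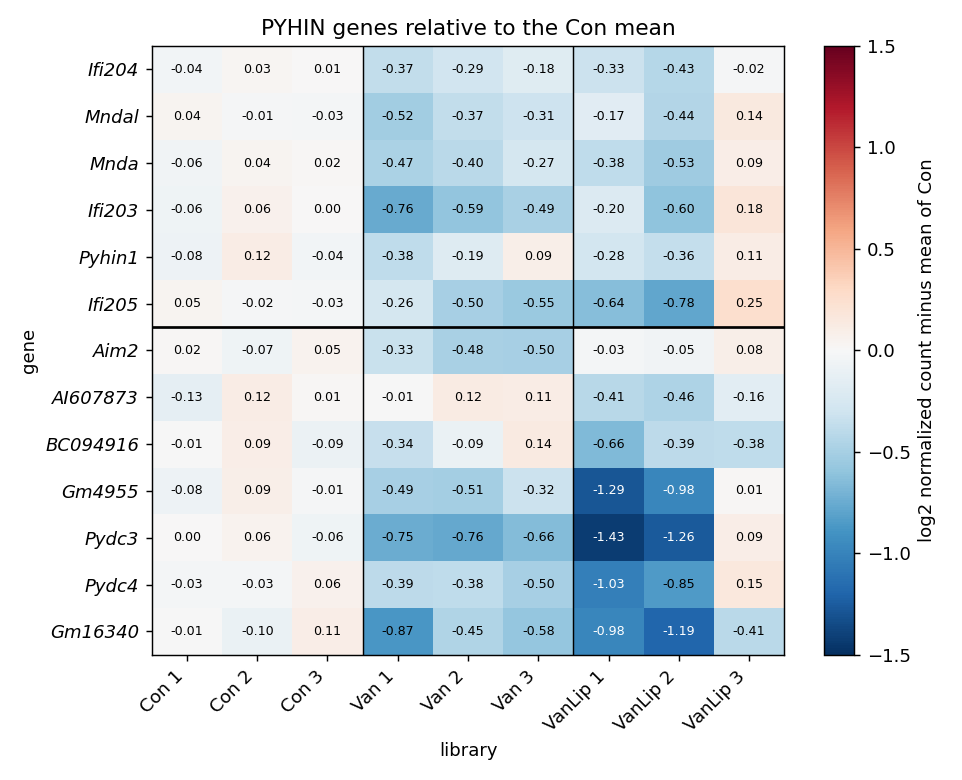
Log2 normalized count minus the Con mean (colour and printed value) for the 6 members (above the line) and 7 other PYHIN genes (below it) in each of the 9 libraries. The Van columns are mostly blue, VanLip replicates 1 and 2 are darkest for Pydc3, Gm4955, Pydc4 and Gm16340, and VanLip replicate 3 is near 0 or above it for all 6 members.

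Genes of the pathways around the family were counted from fixed lists. Among 33 interferon-stimulated genes, 30 had a negative log2 fold change in Van against Con, the median being -0.21, and 2 were called where 4.33% of all genes were, the antiviral GTPase gene Mx1 (-0.41, adjusted p = 0.0403 by DESeq2) and Phf11b (-0.64, adjusted p = 0.00411). In VanLip against Con 29 of 33 were lower, with a median of -0.20, and 1 was called where 6.67% of all genes were, Parp14 (-0.48, adjusted p = 0.0103 by DESeq2). In VanLip against Van 0 were called where 9.85% of all genes were, 23 of 33 being higher with a median of 0.03. Without VanLip replicate 3 the calls were 11, 23 and 10 genes in these contrasts, all of them lower in the first-named group, where 6.48%, 8.15% and 10.3% of all genes were called.

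Their summed level was 1216 to 1329 FPKM in Con, 1072 to 1169 FPKM in Van and 1023, 1110 and 1519 FPKM in VanLip replicates 1 to 3. The order of the libraries within VanLip was not the same as for the members, whose summed level was 448, 399 and 593 FPKM, but replicate 3 was the highest by both.

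**Figure D4:**
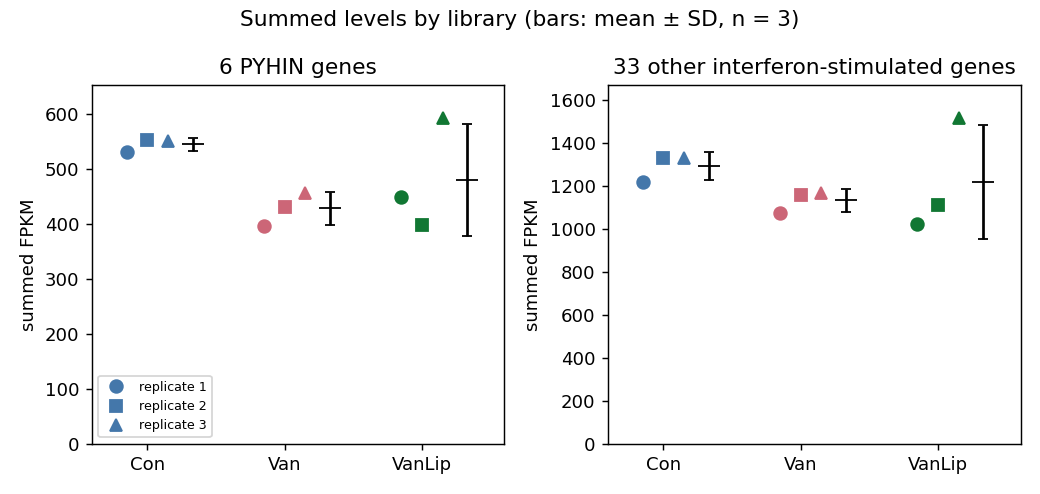
Summed FPKM (vertical axes from 0) of the 6 members on the left and of 33 other interferon-stimulated genes on the right, with 1 symbol per library and black bars for the mean ± SD of 3 libraries. All Van libraries lie below all Con libraries in both panels, and VanLip replicate 3 is the highest library in both.

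Of 17 genes of cytosolic DNA sensing, Casp1, the inflammasome protease gene, was called lower in Van (-0.31, adjusted p = 0.00357 by DESeq2) and in VanLip (-0.29, adjusted p = 0.00520) than in Con, and Pycard was called higher in VanLip than in Van (0.31, adjusted p = 0.0259). The calls were thus 1 of 17 in each contrast, where 4.33%, 6.67% and 9.85% of all genes were called. Of 15 genes of interferon receptor signalling 0, 2 and 1 were called in the same contrasts. In VanLip against Con Ifngr1, a chain of the interferon-gamma receptor, was called higher (0.19, adjusted p = 0.0114 by DESeq2) and Stat2, which carries type I interferon signals, lower (-0.49, adjusted p = 0.00544). In VanLip against Van the transcription factor gene Irf8 was called higher (0.42, adjusted p = 0.000604 by DESeq2). Without VanLip replicate 3 each of these VanLip calls held, with log2 fold changes of -0.34 for Casp1, 0.32 for Pycard, 0.21 for Ifngr1, -0.67 for Stat2 and 0.47 for Irf8, and Stat2 was then also called lower in Van against Con (-0.27) and in VanLip against Van (-0.39). The calls in the 3 contrasts, in the order used above, were then 2, 2 and 1 of the 17 DNA sensing genes and 1, 4 and 2 of the 15 receptor signalling genes, where 6.48%, 8.15% and 10.3% of all genes were called.

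The genes most like each member over the 9 libraries were taken by Pearson's r of log2(normalized count + 1) among 13505 other genes, as a description. These points share libraries, depth and group. Ifi203 and Mndal were each other's nearest gene (r = 0.984). Both were followed by Prkacb (0.983 for Ifi203 and 0.969 for Mndal) and the Fc receptor gene Fcgr1 (0.976 and 0.965). Fcgr1 is also 1 of the 7 classical monocyte markers used here. Ifi204 and Mnda were likewise each other's nearest gene (r = 0.982), both followed by Slfn9 (0.959 for Ifi204 and 0.967 for Mnda), and the third was Ncoa7 (0.951) for Ifi204 and Slfn8 (0.937) for Mnda. Both pairs hold sequence in common or overlap, and the part of exchanged reads in these values was not tested.

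Ifi205 and Pyhin1 had no member among their 3 nearest genes. The nearest genes to Ifi205 were mt-Th (0.976), a mitochondrial transfer RNA gene, Ifit2 (0.960) and Rbbp8 (0.949). Those to Pyhin1 were Zfp111 (0.936), Dck (0.931) and Slfn5 (0.918). Ifi205 and Pyhin1 were the least alike of the members, with r = 0.609 over 9 libraries and 0.496 without VanLip replicate 3, whereas Ifi203 and Mndal stayed at 0.978 without it.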

How the data were processed

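RNA of splenic monocytes was sequenced in 9 libraries, 3 each of Con, Van and VanLip, grouped and numbered by their titles. Per the labels, the authors prepared stranded libraries of polyadenylated RNA, aligned reads to GRCm38 with HISAT2 2.2.1, processed them with SAMtools 1.9 and assembled and quantified them with StringTie 2.1.3, and the submitters' processing notes also name DESeq2 1.38.3. The authors deposited expected counts per gene, which are estimated counts and not normalized, and FPKM values per gene (fragments scaled to transcript length and to the mapped fragments of a library). The annotation release was not given in the sources used here. Such estimates can split reads among near-identical genes. Counts that need not be whole come from coverage times transcript length divided by a read length. The low counts fit 1 read length of 75 having been assumed for all libraries, in which case a library with longer reads has larger counts per fragment.

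After rounding of the expected counts, the 26108 genes above 0 in at least 1 library were fitted in R 4.3.3 with DESeq2 1.42.0, all 9 libraries in 1 fit with group as the only term, by Wald tests for the contrasts and a likelihood-ratio test for any difference. Benjamini-Hochberg adjustment ran over all genes, with calls at 0.05 or under. P-values of the Wald test are two-sided. Each p-value sets a difference between groups against a spread estimated from all libraries of the fit. Levels are FPKM, means ± SD. The script was tested on simulated data. Alternatives were edgeR 4.0.16, TMM library sizes, a filter of 10 counts in 3 libraries, fits of the 2 groups compared, a replicate block, no independent filtering, counts converted to fragments, VanLip thinned to the depth of the others, limma 3.58.1 on log2 FPKM (pseudocount 1 or 0.1, or only genes whose mean FPKM reached 1), and each library left out. Background shares are the percentage of all genes tested that met the same criterion.

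Named genes were the 6 members, other PYHIN genes, called genes of the 3 pathway lists (at most 4 a list and contrast) and the 3 genes closest to each member by correlation, among genes whose mean normalized count reached 50. Cell type marker genes named singly (the called ones, and Klk1) were chosen after their values were seen. Symbols follow the deposited tables. Positions came from GENCODE M21 and promoters from RefSeq. The members and lists were chosen with earlier results of these data known, so their directions are not independent evidence.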

Additional observations from a re-analysis of the deposited data

How the results depend on the processing

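The count of members called was the result that moved most. For Van against Con (2 of 6) it was 0 with edgeR (1.21% of all genes called) and with each of the 3 limma fits (0.138% to 0.871%), 1 with TMM library sizes (4.3%), without independent filtering (2.75%) and with VanLip thinned (4.92%), 5 with only the 2 groups compared (9.23%), and 1 to 5 when 1 library was left out (2.37% to 6.48%). The call of Ifi203 held in 9 of 9 leave-one-out fits and in 7 of 11 other alternatives, and that of Mndal in 3 of 9 and 4 of 11. For VanLip against Con (0 of 6) the count was 0 to 5 with 1 library left out (3.39% to 8.15%). For VanLip against Van (0 of 6) it was 1 with TMM library sizes (10.4%) and 0 to 2 with 1 library left out (6.23% to 10.3%). For any difference (1 of 6) it was 0 with edgeR (4.67%) and each limma fit (1.75% to 6.52%) and 0 to 5 with 1 library left out (8.63% to 15.2%).

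Same-numbered libraries deviated from their group means with correlations of -0.07 to 0.12, and 1 of 9 libraries was closest to its own number. Whether same-numbered libraries shared a preparation was not otherwise tested. With the replicate block the counts were 3, 0, 1 and 4 in the order above, where 3.66%, 4.5%, 6.71% and 10.4% of all genes were called.

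Directions in Van against Con were negative under every alternative run. Reversals occurred in the VanLip contrasts. With 1 library left out, VanLip against Con ran from -0.39 to 0.00178 for Ifi203 (positive without VanLip replicate 2), and VanLip against Van ran from -0.10 to 0.11 for Ifi204 (-0.016 without Van replicate 1), -0.28 to 0.31 for Ifi205, -0.078 to 0.25 for Mnda and -0.17 to 0.13 for Pyhin1 (0.044 without VanLip replicate 1 and 0.081 without VanLip replicate 2). The lowest of each of these ranges came without VanLip replicate 3. Pyhin1 was at 0.014 in VanLip against Van with TMM library sizes. The cause was not tested. The log2 ratio of the summed count ran from -0.42 to -0.29 for Van against Con, -0.38 to -0.077 for VanLip against Con and -0.03 to 0.28 for VanLip against Van with 1 library left out. Ifi205 in VanLip went from 34.5 to 26.3 FPKM without VanLip replicate 3. Each member had at least 3008 counts in every library, and the SD between libraries within VanLip was 15.1% to 41.4% of the mean.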
